A study of Mus musculus with 6 samples.

Results

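Hira and 9 further genes of histone H3.3 and its chaperones were followed in ribosome-bound RNA of S100a10-expressing cortical cells. The members were Hira, Cabin1, Ubn1, Ubn2, Asf1a, Asf1b, Daxx, Atrx, H3f3a and H3f3b, taken by gene symbol. They were represented by the 26 probe sets that the platform annotation assigns to 1 of these symbols alone, out of 45037 probe sets in all. The genes share a function, but they were chosen with the FLX and VEH values of these same arrays in view, so those values count as what they were selected on. They are given as a description and carry no test.

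All mice were constitutive p11 KO animals, lacking the protein that S100a10 encodes, and carried the S100a10 bacTRAP transgene (line ES691), in which the S100a10 promoter drives a tagged ribosomal protein so that the RNA on the ribosomes of the labelled cells can be pulled down. In the first group (FLX, 3 arrays) the mice drank fluoxetine, a selective serotonin reuptake inhibitor, at 0.167 mg per ml in 1% saccharine. In the other (VEH, 3 arrays) they drank 1% saccharine alone. Treatment lasted 15 to 18 days in both groups, and the strain was FVB backcrossed to C57BL/6 for 3 to 5 generations. The arrays are described as independent biological replicates, and the sources used here give neither the number of mice per array nor their age, and no wild-type array was analysed here. The submitters state that the transgene also marks some non-neuronal cells.

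Histone H3.3 is the H3 variant that is placed into chromatin outside DNA replication, and it is the H3 form that neurons, which no longer divide, go on using. Its main routes of deposition, the HIRA complex and the pair of DAXX and ATRX, are both known from mouse and human cells. In the HIRA complex the scaffold HIRA works with CABIN1 and the ubinuclein UBN1 or UBN2 and receives H3.3 with H4 from the chaperone ASF1A, mostly at transcribed genes and regulatory elements. DAXX with the remodeller ATRX places H3.3 at telomeres and pericentric heterochromatin. ASF1B, the paralogue of ASF1A, is best known from dividing cells. H3f3a and H3f3b are separate genes for the same H3.3 protein.

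The promoters of 3 members are shown because these genes carry the main patterns: Hira had a probe set with separate FLX and VEH values, and Atrx and Asf1a had the brightest probe sets that moved most, in opposite directions, with the replicate number. Each run is the 250 bases before the annotated start, 5′ to 3′ on the gene's strand, from the RefSeq table of build GRCm38.p6. The Hira run lies at chr16:18876500-18876749 on the plus strand, the Asf1a run at chr10:53596711-53596960 on the plus strand and the Atrx run at chrX:105929373-105929622 on the minus strand. Capitals mark matches, on either strand, to the GC box and the CCAAT box.
Hira promoter: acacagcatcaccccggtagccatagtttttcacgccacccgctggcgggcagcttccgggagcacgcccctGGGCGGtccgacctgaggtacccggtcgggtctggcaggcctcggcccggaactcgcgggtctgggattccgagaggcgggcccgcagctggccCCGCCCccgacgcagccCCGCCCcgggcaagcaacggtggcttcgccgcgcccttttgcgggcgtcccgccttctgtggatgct
Asf1a promoter: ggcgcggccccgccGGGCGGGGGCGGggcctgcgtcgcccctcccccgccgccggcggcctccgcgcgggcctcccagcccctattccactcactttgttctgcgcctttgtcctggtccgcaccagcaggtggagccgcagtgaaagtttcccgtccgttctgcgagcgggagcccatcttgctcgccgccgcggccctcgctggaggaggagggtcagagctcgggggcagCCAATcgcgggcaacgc
Atrx promoter: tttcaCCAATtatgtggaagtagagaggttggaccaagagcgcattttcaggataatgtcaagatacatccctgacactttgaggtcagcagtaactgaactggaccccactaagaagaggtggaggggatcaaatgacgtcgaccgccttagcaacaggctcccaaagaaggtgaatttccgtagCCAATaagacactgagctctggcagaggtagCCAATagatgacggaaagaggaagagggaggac

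All 10 genes had a promoter in the table, with 12 windows in all because Daxx has 3 starts. Both strands were searched for 4 motifs: the GC box with the letters GGGCGG, the box named for its letters CCAAT, the element TATAAA that sits just before some starts, and the cyclic AMP response element TGACGTCA. In these windows no match overlapped a match of another motif. The Hira window held 3 GC boxes and 0 CCAAT boxes, the Asf1a window 2 GC boxes and 1 CCAAT box, and the Atrx window 0 GC boxes and 3 CCAAT boxes. At least 1 GC box was found for 7 of the 10 genes and a CCAAT box for 8, counted per gene over all its windows. Counted per window, 32.7% and 33.8% of all 32851 promoter windows held one. The units differ, and the shares were not compared by a test. TGACGTCA was found for 2 genes, Ubn1 and Ubn2, and in 1.55% of all windows. TATAAA was found for H3f3b alone among the members and in 12.4% of all windows. These letter matches describe the windows and say nothing of which factors bind there.

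Values are GCRMA intensities on a linear scale, with no common unit between probe sets, and where 3 values of a group are given they stand for replicate numbers 1, 2 and 3. A log2 difference is FLX minus VEH, with the standard error (SE) of the limma fit, which draws its variance partly from all probe sets compared. A probe set entered the comparison of FLX with VEH when at least 1 group had a mean of 50 or more, which left 22200 probe sets, among them 17 of the 26 for 8 of the 10 genes. The other 9 lay between 4.26 and 40.3 over the 6 arrays, so they gave no usable level. Those 9 were 2 of 4 for Hira, 2 of 3 for Cabin1, 2 of 4 for Ubn2, 1 of 7 for Atrx and the single ones of H3f3a and H3f3b. A further 5 probe sets name H3f3a and H3f3b together with 4 other symbols, so they cannot be read as either gene and no H3.3 level is given. Cell type markers and other listed genes are each given by their brightest tested probe set alone, and further sets of a gene can differ.

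In the whole series, replicates 1 and 2 of both groups correlated at r = 0.987 to 0.995 across tested probe sets. The replicate 3 arrays correlated with these at 0.867 to 0.916 and with each other at 0.973. Pan-neuronal markers, 10 of 10 of them tested, summed to 134998 to 173971 in FLX and 124401 to 167929 in VEH arrays, while leptomeningeal and fibroblast markers, 16 of 16 tested, summed to 30974 to 170783 in FLX and 50935 to 163405 in VEH arrays, with the lowest value of each group in replicate 3. Oligodendrocyte markers, 9 of 9 tested, summed to 26309 to 72646 in FLX and 25583 to 68026 in VEH arrays, highest in replicate 3. Such sums add values without a common unit and follow the brightest probe sets: Cnp and Mbp made up 86.2% of the oligodendrocyte sum, and while 6 of the 9 markers were higher in replicate 3 in both groups, Cldn11, Mag and Ugt8a were lower. The deleted gene S100a10 had values of 349 to 2222 in FLX and 643 to 3111 in VEH arrays in its brightest probe set, of the x_at type, whose probes can also match other transcripts. Its other 2 probe sets stayed under 50, the brighter of them at 41.9 to 44.5 in FLX and 34.0 to 49.4 in VEH arrays and the dimmer at 7.35 to 8.22 in FLX and 4.98 to 8.03 in VEH arrays. Their log2 differences of 0.06 and 0.22 had the opposite sign to the -0.50 of the brightest. Since the position of the probes relative to the deletion is not known, these values check nothing about the genotype.

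Hira, the scaffold of the HIRA complex, had the largest FLX and VEH difference of the members, and it had it in 1 of its 2 detected probe sets. Probe set 1450050_at read 232, 251 and 241 in FLX arrays, against 150, 136 and 138 in VEH arrays. The groups did not overlap, and the lowest FLX array stood 1.55-fold above the highest VEH array. The means were 241 ± 9.68 in FLX and 141 ± 7.55 in VEH arrays (SD, n = 3 each), a 1.71-fold difference or 0.77 on the log2 scale (SE 0.17). Between arrays of equal replicate number the log2 difference was 0.63, 0.89 and 0.80. Replicate 3, which stands apart in the series, did not stand apart here: it differed from replicates 1 and 2 by -0.00 in FLX and -0.05 in VEH arrays, and without both replicate 3 arrays the difference was 0.76. Of all tested probe sets, 89 had a larger positive difference.

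Cell type markers had FLX and VEH differences of either sign, none past the adjusted threshold, and their part in the Hira value was not tested. The astrocyte marker Gfap read 370, 372 and 1546 in FLX arrays, against 109, 159 and 547 in VEH arrays, and the water channel gene Aqp4 read 209, 489 and 463 in FLX arrays, against 117, 326 and 120 in VEH arrays. Both were higher in FLX at all 3 replicate numbers, with log2 differences of 1.496 (SE 0.81) and 1.12 (SE 0.53). These were the largest of the 10 astrocyte markers, and the others ran from -0.04 to 0.37. Between arrays of equal replicate number the log2 difference was 1.767, 1.223 and 1.498 for Gfap and 0.834, 0.586 and 1.945 for Aqp4. The groups of both genes overlapped. For Gfap, replicate 3 lay 2.06 above replicates 1 and 2 in both groups on the log2 scale. The SE of 0.81 includes this shift. With the replicate number as a block the SE was 0.17 for Gfap and 0.27 for Aqp4, against 0.16 for Hira 1450050_at. Over the 10 astrocyte markers 7 differences were positive and 3 negative, with a median of 0.27, and the markers summed to 40530 to 51131 in FLX and 39221 to 43188 in VEH arrays. All 5 tested pericyte and smooth muscle markers, of 8 on the array, were negative, with a median of -0.62 and sums of 2090 to 5127 in FLX and 2183 to 8430 in VEH arrays. Among them, Rgs5 at -0.05 (SE 0.73) and Cspg4 at -0.03 (SE 0.21) were close to no difference. Of the 16 leptomeningeal and fibroblast markers 13 were negative, with a median of -0.37. Of the pan-neuronal markers 9 of 10 were positive, with a median of 0.15, and of the layer 5 pyramidal markers 7 of 9, with a median of 0.25. Among these markers 0 passed limma's adjusted threshold and 0 had groups that did not overlap. Of all tested probe sets 0.00% passed, and 2.55% (FLX higher) and 1.79% (FLX lower) had no overlap. These counts of 0 therefore say little about the markers.

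The second detected Hira probe set did not share this pattern. Probe set 1436241_s_at read 81.0, 69.3 and 76.7 in FLX arrays, against 68.8, 70.8 and 88.9 in VEH arrays, so the FLX arrays lay inside the range of the VEH arrays. Its means were 75.7 ± 5.90 in FLX and 76.2 ± 11.04 in VEH arrays, a log2 difference of -0.00 (SE 0.20). The mean log2 difference of both detected probe sets was 0.38. The 2 dim probe sets are near the floor of the array: 1450049_a_at, which the annotation derives from the same source sequence as 1450050_at, read 6.40 to 7.29 in FLX and 6.45 to 9.03 in VEH arrays, and 1459103_at read 5.75 to 6.05 in FLX and 5.373 to 5.597 in VEH arrays, without overlap but at a level that the minimum of 50 leaves out. The suffixes s_at and a_at mark probes shared between transcripts, and the sources used here do not place each set on the Hira transcript. What sets the probe sets apart was not tested.

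**Figure D1:**
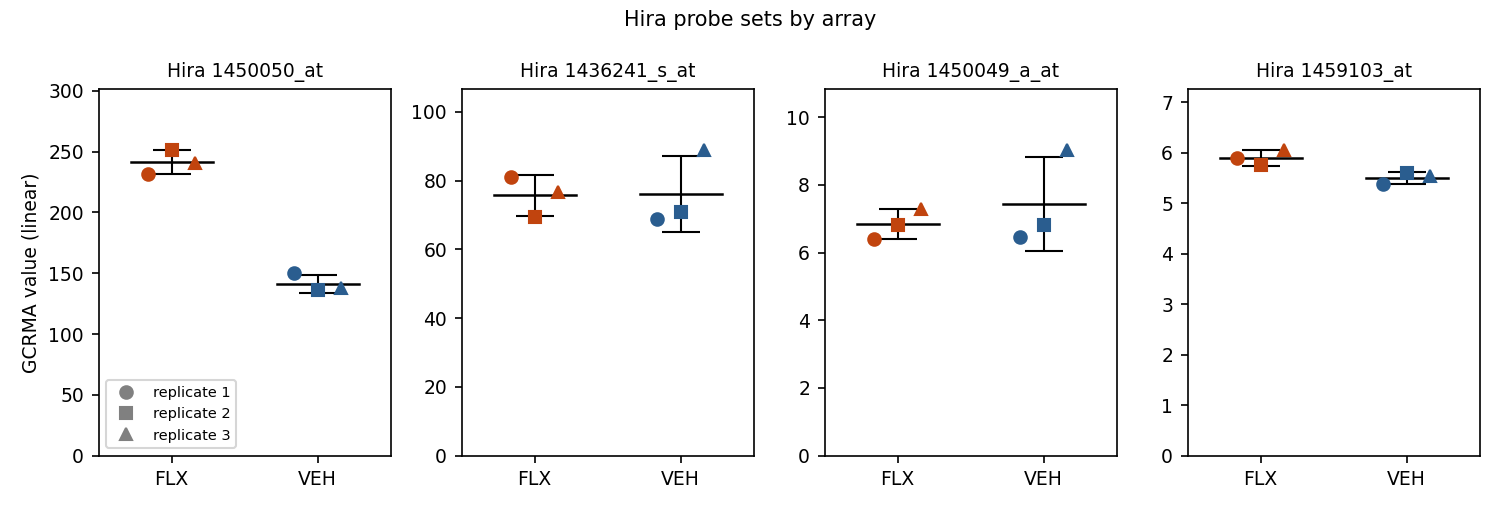
GCRMA values (linear scale, each panel from 0) of the 4 Hira probe sets, with FLX arrays on the left and VEH arrays on the right of each panel, symbols for the replicate number, and the mean with SD (n = 3) in black. The FLX arrays of 1450050_at lie between 232 and 251 and its VEH arrays between 136 and 150, whereas the groups of 1436241_s_at overlap and the other sets stay below 10.

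Across all 22200 tested probe sets limma called 0 between FLX and VEH at an adjusted p under 0.05 (0.00%), and 0 of the 17 member probe sets. At an unadjusted p under 0.05 it called 83 (0.374%), of which 1 is a member, Hira 1450050_at. With the replicate number as a block the adjusted count was again 0 (0.00%), and the unadjusted count was 1764 (7.95%), with the same single member. All 3 FLX arrays lay above all 3 VEH arrays in 565 probe sets (2.55%) and below them in 397 (1.79%), against 1 and 0 of the 17 member probe sets. A difference of 1.5-fold or more was found in 341 probe sets higher in FLX (1.54%) and 476 lower (2.14%), against 1 and 0 members. The median log2 difference was 0.03 over the 17 member probe sets and 0.04 over all tested. Nothing about the members is read from these shares, because the contrast was known when they were chosen.

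The partners of Hira in its complex overlapped between FLX and VEH. Cabin1, which codes for a calcineurin-binding subunit of the complex, had 1 detected probe set, 1433686_at, at 147, 162 and 171 in FLX arrays, against 161, 154 and 264 in VEH arrays. The VEH replicate 3 array alone lay above the rest, and the log2 difference of -0.23 (SE 0.27) was 0.02 without it. Its other 2 probe sets stayed at 6.21 to 40.3, also highest in VEH replicate 3.

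Ubn1, a ubinuclein that binds H3.3 with HIRA, had 2 detected probe sets. The brighter, 1438401_at, read 505, 517 and 611 in FLX arrays, against 582, 581 and 967 in VEH arrays. FLX was lower than VEH at every replicate number, with log2 differences of -0.20, -0.17 and -0.66, as in 13.7% of all tested probe sets, but FLX replicate 3 exceeded VEH replicates 1 and 2. The difference of -0.34 (SE 0.27) came to -0.10 without VEH replicate 3. The dimmer set, 1433780_at, read 160, 182 and 233 in FLX arrays, against 183, 184 and 181 in VEH arrays, a difference of 0.05 (SE 0.21), so the sets of Ubn1 gave opposite signs and neither separated the groups.

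Ubn2, the second ubinuclein, also gave opposite signs in its 2 detected probe sets. Probe set 1436632_at read 395, 423 and 370 in FLX arrays, against 469, 363 and 243 in VEH arrays, with a difference of 0.19 (SE 0.28). Probe set 1437022_at read 129, 144 and 132 in FLX arrays, against 181, 134 and 220 in VEH arrays, with a difference of -0.37 (SE 0.24), the most negative of the members. In both sets the FLX arrays stayed within a narrow range that lay inside or at the lower edge of the wider VEH range, and VEH replicate 3 was the lowest array of the one and the highest of the other. Without that array the differences were -0.06 and -0.21.

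Asf1a, the chaperone that hands H3.3 with H4 to the HIRA complex, had 2 detected probe sets. The brighter, 1423511_at, read 2098, 2131 and 1492 in FLX arrays, against 2675, 2348 and 1182 in VEH arrays. FLX lay below VEH in replicates 1 and 2 and above it in replicate 3, and the mean difference was -0.05 (SE 0.37). The dimmer, 1459882_at, read 142.4, 135.9 and 166.4 in FLX arrays, against 144.1, 122.98 and 168.1 in VEH arrays, a difference of 0.04 (SE 0.21). Asf1b, its paralogue, had a single probe set at 98.3, 87.8 and 113 in FLX arrays, against 88.0, 103 and 91.5 in VEH arrays, a difference of 0.08 (SE 0.20) with overlapping groups. Of 15 proliferation markers on the array, 6 passed the minimum of 50, with a median log2 difference of 0.11, and they summed to 5798 to 7351 in FLX and 5351 to 6261 in VEH arrays. These 6 were Pcna, Mcm5, Mcm6, Rrm2, Mcm3 and Ccnb2, and Pcna and Mcm5 made up 82.2% of the sum.

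Daxx, the H3.3 chaperone of the second route, had the steadiest of the 17 detected probe sets, with an SD of 0.07 on the log2 scale over the 6 arrays. Its single probe set read 556, 501 and 519 in FLX arrays, against 510, 492 and 538 in VEH arrays. All 6 arrays, replicate 3 included, lay between 492 and 556, and the difference was 0.03 (SE 0.18).

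Atrx, the remodeller that works with Daxx and whose mutation in humans causes an X-linked syndrome with intellectual disability, had 6 detected probe sets of 7, and 5 of these separated replicate 3 from the rest in both groups. The brightest, 1433537_at, read 7177, 7307 and 14404 in FLX arrays, against 6672, 6911 and 12581 in VEH arrays. Replicate 3 was 1.99-fold above replicates 1 and 2 in FLX and 1.85-fold in VEH arrays. FLX was higher at every replicate number, with log2 differences of 0.11, 0.08 and 0.20, as in 19.6% of all tested probe sets, and the difference of 0.13 (SE 0.40) was small beside the gap between replicates.

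The next 4 probe sets of Atrx showed the same split. Probe set 1450051_at read 453, 497 and 1169 in FLX arrays, against 522, 380 and 1171 in VEH arrays. Probe set 1453734_at read 293, 310 and 764 in FLX arrays, against 274, 266 and 512 in VEH arrays. In both the replicate 3 arrays of FLX and VEH were the highest pair. Probe set 1420946_at read 134, 300 and 774 in FLX arrays, against 232, 317 and 865 in VEH arrays. Probe set 1420947_at read 289, 274 and 662 in FLX arrays, against 260, 249 and 869 in VEH arrays. Replicate 3 again held the highest array of each group. The dimmest detected set, 1420945_at, read 60.3, 64.5 and 63.6 in FLX arrays, against 56.3, 57.2 and 101 in VEH arrays, with a higher replicate 3 array in VEH alone. FLX and VEH differences of the 6 sets ran from -0.34 to 0.30, 3 positive and 3 negative. The annotation derives 5 of the 7 Atrx probe sets from 1 source sequence, among them 1420948_s_at at 8.23 to 10.4, so they are not independent readings.

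**Figure D2:**
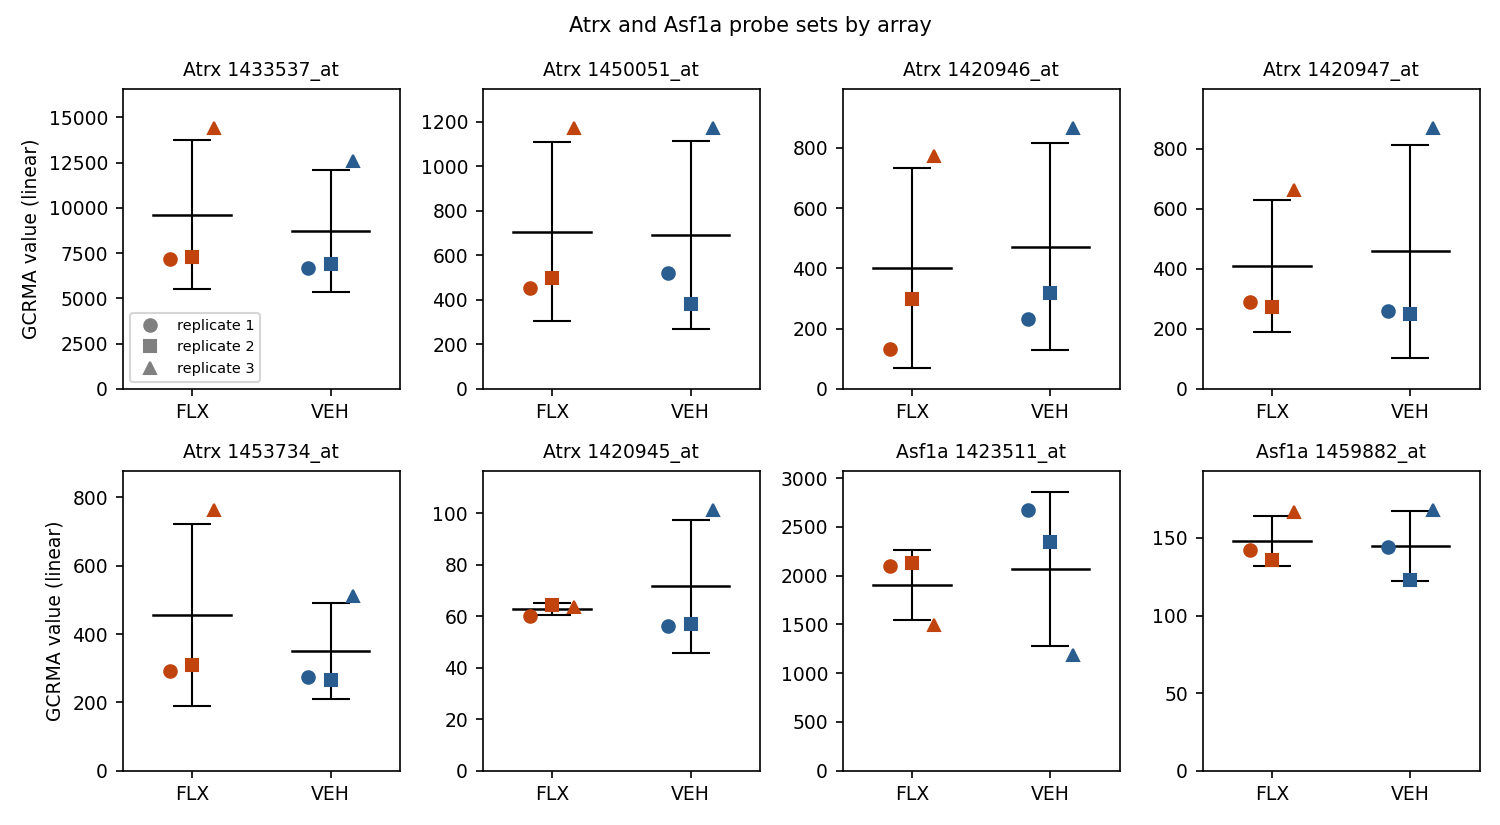
GCRMA values (linear scale, each panel from 0) of the 6 detected Atrx and 2 detected Asf1a probe sets, FLX arrays left and VEH arrays right, with the mean and SD (n = 3) in black. Replicate 3 (triangles) is the highest array of both groups in 5 Atrx panels, for example 14404 in FLX and 12581 in VEH for 1433537_at, and the lowest in Asf1a 1423511_at, at 1492 and 1182.

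Over the 17 member probe sets, replicate 3 lay 1.5-fold or more above replicates 1 and 2 in both groups in 5, all of Atrx, and as far below in 0. The shares among all tested probe sets were 16% and 21.5%. Asf1a 1423511_at was lower in replicate 3, with log2 differences of -0.50 in FLX and -1.08 in VEH arrays, while its dimmer set was higher by 0.26 and 0.34. Ubn1 1438401_at was higher in replicate 3 by 0.26 and 0.73 and Cabin1 1433686_at by 0.15 and 0.75, both by more in VEH than in FLX. Ubn2 1436632_at was lower, at -0.14 and -0.76. The labels do not say what a replicate number stands for, each number has 1 array a group, and the marker lists move with it. Median log2 differences of replicate 3 from the other replicates came to -3.72 (FLX) and -3.41 (VEH) for leptomeningeal markers, -2.01 and -2.47 for pericyte and smooth muscle markers, -0.59 and -1.89 for endothelial markers and -0.58 and -1.44 for microglia and macrophage markers. The leptomeningeal markers were lower in both groups in 16 of 16 and the endothelial in 5 of 5, but the pericyte and smooth muscle markers in 3 of 5, with Rgs5 higher by 1.96 in FLX and 1.55 in VEH arrays and Cspg4 by 0.04 and 0.47. Microglia and macrophage markers were lower in 7 of 9 and higher in 1. They were 1.22 and 0.60 for oligodendrocyte, 0.75 and 0.69 for interneuron, 0.63 and 0.90 for layer 5 pyramidal, 0.54 and 0.61 for pan-neuronal and 0.36 and -0.48 for astrocyte markers. Higher in both groups were 6 of 9 oligodendrocyte, 7 of 8 interneuron, 5 of 9 layer 5 pyramidal, 7 of 10 pan-neuronal and 4 of 10 astrocyte markers, and lower in both were 3, 1, 3, 2 and 4 of them in that order. The part of these cell types in the Atrx and Asf1a values was not tested, and in bulk RNA of this kind fewer cells of a type and less RNA per cell cannot be told apart.

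**Figure D3:**
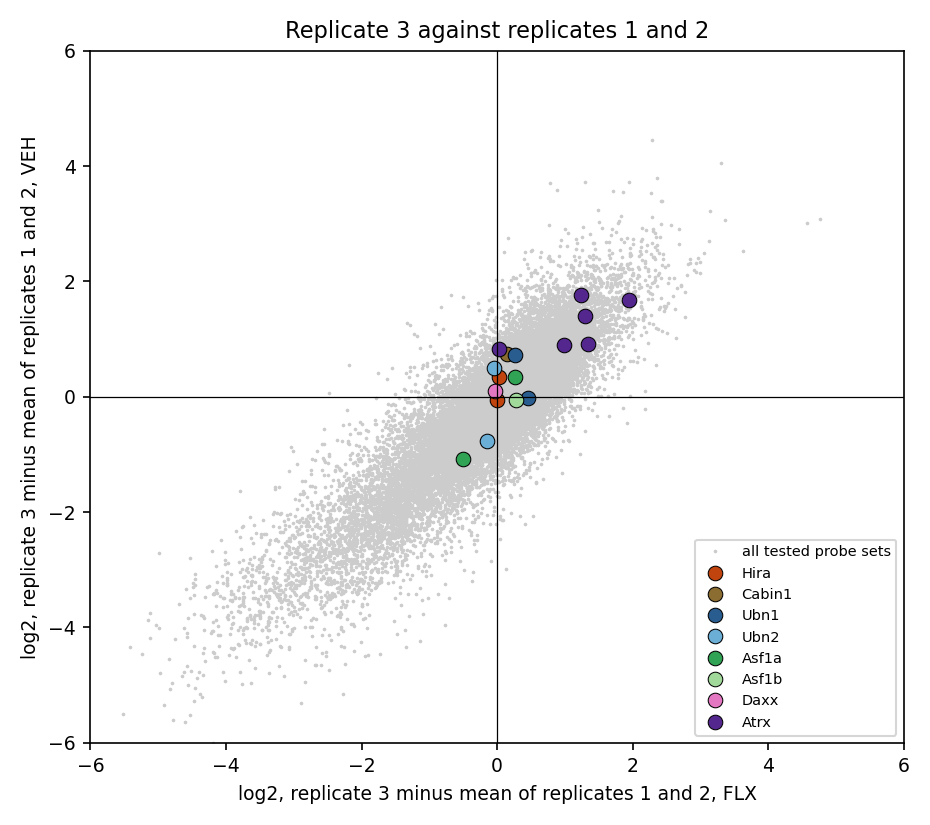
Log2 difference of replicate 3 from the mean of replicates 1 and 2, in FLX arrays (horizontal axis) and VEH arrays (vertical axis), with the 22200 tested probe sets in grey and those of the member genes in colour. The 5 Atrx probe sets that moved in both groups sit at 0.99 to 1.95 in FLX and 0.89 to 1.77 in VEH arrays, the Hira and Daxx sets near 0 in FLX, and Asf1a 1423511_at at -0.50 and -1.08.

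Probe sets of 1 gene did not move as one. All 5 genes with 2 or more detected probe sets (Hira, Ubn1, Ubn2, Asf1a and Atrx) had FLX and VEH differences of both signs among them. Several of these were small beside their SE, such as -0.003 (SE 0.20) for Hira 1436241_s_at and 0.05 (SE 0.21) for Ubn1 1433780_at. Such signs carry little weight. Over the 6 arrays the log2 values of the other 5 Atrx sets correlated with the brightest Atrx set at r = 0.63 to 0.98, the 2 Asf1a sets correlated with it at -0.91 and 0.87, and Hira 1450050_at at 0.11. These correlations rest on the 6 arrays of 1 series, whose largest contrast is replicate 3, and serve as description only.

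**Figure D4:**
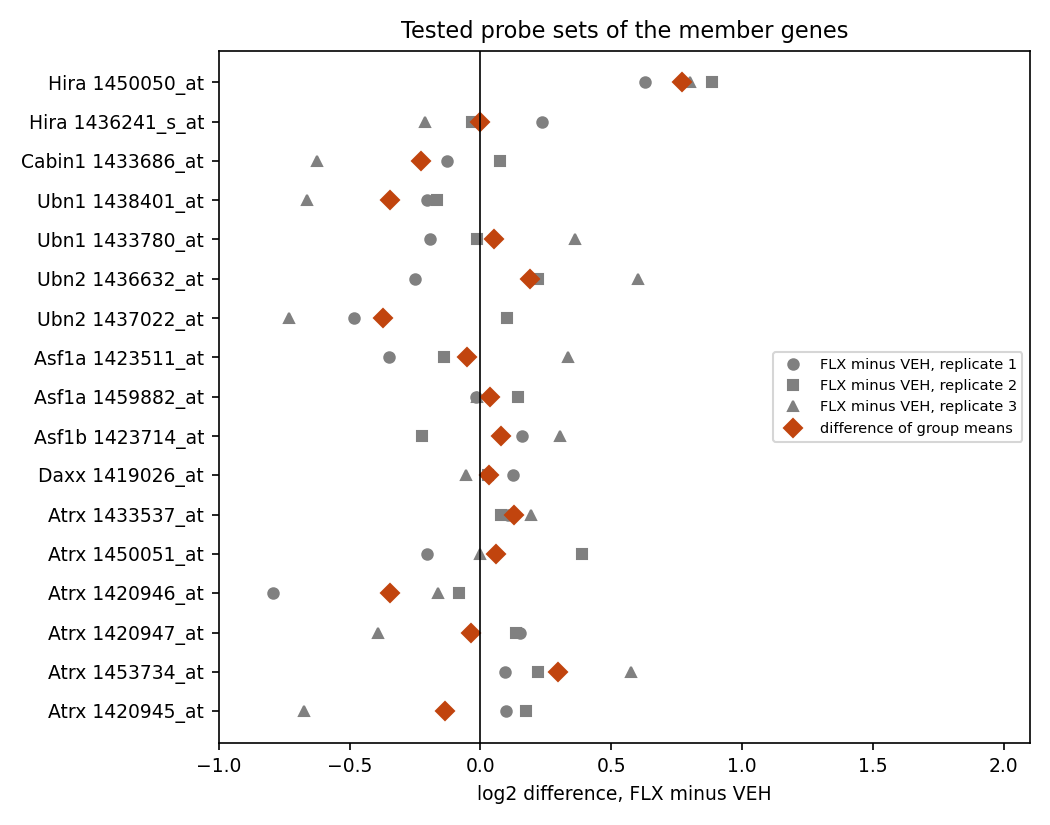
Log2 difference of FLX minus VEH for the 17 detected member probe sets, with grey symbols for arrays of equal replicate number and orange diamonds for the difference of the group means. Hira 1450050_at lies at 0.63 to 0.89 at all 3 numbers, while the group differences of the other sets lie between -0.37 and 0.30.

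The genes whose log2 values over the 6 arrays were most like those of Hira 1450050_at were Hccs, Tmem40, Mmp16, Marchf9 and Wnt7b, at Pearson r of 0.97, 0.95, 0.94, 0.94 and 0.92, out of 12206 genes by their brightest probe set. Hccs, the enzyme that attaches haem to cytochrome c, read 2872, 3275 and 3048 in FLX arrays, against 2230, 2209 and 2325 in VEH arrays. Wnt7b, a secreted Wnt ligand, read 348, 345 and 368 in FLX arrays, against 272, 293 and 249 in VEH arrays. Each of the 5 had FLX arrays that did not overlap the VEH arrays, which follows from likeness to a probe set of that kind. In all, 8 genes reached r = 0.9, which is 0.0655% of those searched.

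Other genes of histone chaperoning and H3.3 chromatin were each read by their brightest tested probe set alone. They were taken from 5 lists. In the limma fit without the block, 0 of their members passed the adjusted threshold in either direction, with 0 at an unadjusted p under 0.05. The shares among all tested probe sets were 0.00% and 0.374%, so counts of 0 do not set these genes apart. Of 22 other histone chaperones tested, 13 had a positive and 9 a negative difference, with a median of 0.03. Nap1l2, a neuronal nucleosome assembly protein, read 7650, 6797 and 10774 in FLX arrays, against 5801, 6221 and 7331 in VEH arrays, a difference of 0.36 (SE 0.25). Nap1l5 had a difference of 0.22 (SE 0.19). Of 8 remodellers and replication protein A genes linked to H3.3 deposition, 5 were positive, with a median of 0.07, and Ruvbl1, an ATPase of several remodelling complexes, had 0.27 (SE 0.25) and Ep400, which exchanges histone variants, 0.18 (SE 0.18).

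The partners of Daxx and Atrx in PML bodies and heterochromatin included Cbx5 and Cbx1, both heterochromatin protein 1 genes and the 2 genes without overlap between FLX and VEH among the 43 tested in the 5 lists. That is 2.33% of these genes in each direction, near the 2.55% higher and 1.79% lower among all tested probe sets, so it sets neither the genes nor their list apart. Cbx5 read 1559, 1370 and 1954 in FLX arrays, against 1324, 1337 and 986 in VEH arrays, all FLX arrays higher, with a difference of 0.42 (SE 0.24). Cbx1 read 2571, 2723 and 2176 in FLX arrays, against 3297, 2754 and 3697 in VEH arrays, all FLX arrays lower, with a difference of -0.38 (SE 0.21). These paralogues gave values in opposite directions and neither passed the test. The median of the 8 genes of that list was 0.04. Of 5 readers and writers of H3.3 lysine methylation 4 were positive, with a median of 0.11, and the methyltransferase genes Nsd2 and Nsd3 had 0.34 (SE 0.42) and 0.27 (SE 0.26). None (0) of the 3 replication-coupled H3 genes with a probe set of their own reached the minimum of 50.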

How the data were processed

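The deposited table holds 1 column per array of probe set intensities on a linear scale, made by the authors with GCRMA per the submitters' processing notes, with no version or settings stated. RNA from TRAP was amplified in 2 cycles from 15 ng and hybridised to Affymetrix mouse arrays, per the labels' protocols. Control probe sets (64) were left out. The annotation gives 1 symbol to 34945 probe sets, several to 932 and none to 9160. The submitters' own list of neuronal probe sets was not used.

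Log2 values with no pseudocount were fitted with limma 3.58.1 (R 4.3.3), FLX against VEH (two-sided, Benjamini-Hochberg over 22200 probe sets, threshold 0.05). The script was first tested on simulated data with independent noise in each array. Those data lacked a shift shared by the replicate 3 arrays, so the test gives no assurance about calls in arrays of this kind. P-values set each difference against the spread between 3 arrays a group, which limits the precision. In the fit without a block that spread includes the contrast of replicate 3 with the other replicates. Arrays of equal replicate number deviated together from their group means (r = 0.70, 0.84 and 0.87; unlike numbers 1 and 2 reached 0.64 and 0.76), so the number was also fitted as a block. The text names all members, S100a10 as the deleted gene, the 2 genes of each pathway list with the smallest unadjusted p and the 5 genes most like Hira. Single cell type markers are named outside these rules, among them Gfap and Aqp4, which had the largest differences of the astrocyte markers. Members, lists and rules were chosen with earlier results of these data known. Matplotlib 3.10.9 drew the figures.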

Additional observations from a re-analysis of the deposited data

How the results depend on the processing

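The count of probe sets called between FLX and VEH was 0 in the fit reported and in all 12 alternatives, for the whole table and for the member genes. With the replicate block it was 0 as well, so the block changed no call. The unadjusted count ran from 48 to 1764 over all probe sets and was 1 among the members in each setting. Hira 1450050_at, chosen with this contrast known, kept its direction in all 13 alternatives, at 0.74 to 0.82 with 1 array left out. The mean of the detected Hira probe sets was 0.38, and 1436241_s_at alone had -0.003. Ubn1 1438401_at also kept its direction, at -0.47 to -0.10. The other detected Ubn1 set, 1433780_at, ran from -0.10 to 0.17 with 1 array left out. The replicate block and the changes to the minimum value cannot alter a difference of group means. Those alternatives therefore could not change a direction. For Hira 1450050_at, leaving out arrays or adding a constant before log2 could not do so either, because its groups do not overlap. The small differences of the other brightest probe sets changed sign in 1 alternative for Cabin1 and Daxx, 2 for Asf1b, 3 for Ubn2 and Asf1a and 4 for Atrx. With 1 array left out, Atrx ran from -0.20 to 0.42 and Asf1a from -0.41 to 0.18. Values under 50 limit 9 of the 26 member probe sets.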
